A study of Mus musculus with 98 samples.

Results

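The comparison described here sets the blood leukocyte arrays of the lipopolysaccharide (LPS) model that carry the code x and the letter A in their title against those that carry the code c and the same letter. It takes in 11 of the 98 arrays of the series, 5 labelled x and 6 labelled c. The arrays of each group were set by title alone. The comparison itself was chosen with earlier results of these data known. Each array measured RNA from the white blood cells of mice on a 1-colour Affymetrix chip.

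Per the labels, the letter A stands for sham treatment and the letter E for infusion of LPS, so that the x and the c arrays here are both labelled sham. The labels do not say what the codes x and c mean, and the groups are compared as coded. Strain, age, sex and time are not given in the labels. Whether each array is a different animal is not in the labels, so the p-values cover the spread between these arrays and no more, and that spread may be technical. In bulk leukocyte RNA, fewer cells of a type and less RNA per cell cannot be told apart.

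LPS is a component of the outer membrane of Gram-negative bacteria. It is bound in plasma by Lbp, handed to the receptor of Tlr4, Ly96 and Cd14 on myeloid cells, and signals through Myd88 and the NF-kB transcription factors to genes of inflammation. Systemic inflammation and stress also release neutrophils into the blood, including immature ones whose RNA is rich in granule proteins such as Ngp, Ltf, Camp and Lcn2. Sham animals undergo the handling of a model without its agent.

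The overall signal lay in a narrow range. The median intensity lay between 137.8 and 143.1 on x arrays and between 140.0 and 144.9 on c arrays (exact permutation test, two-sided, p = 0.108, n = 5 and 6). The dimmest probe sets were held at 1 lowest value, which 6.39% to 6.78% of the probe sets had on x arrays and 6.29% to 6.80% on c arrays. One measure of the RNA itself did separate the codes. For the control probe sets of beta-actin, the log2 ratio of the 3′ to the 5′ signal, which is higher where transcripts are cut short at their 5′ end, was 1.06 ± 0.0926 on x arrays and 1.59 ± 0.0677 on c arrays (SD, n = 5 and 6). It lay between 0.961 and 1.17 on x arrays and between 1.49 and 1.65 on c arrays, without overlap (exact permutation test, p = 0.00433, the smallest that this design allows, adjusted p = 0.0173 over 4 measures). The same ratio for Gapdh was 2.88 ± 0.251 on x arrays and 2.76 ± 0.0881 on c arrays (SD, exact permutation p = 0.286). Because the beta-actin ratio separates the groups, its part in the differences below and that of the code cannot be told apart.

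**Figure D1:**
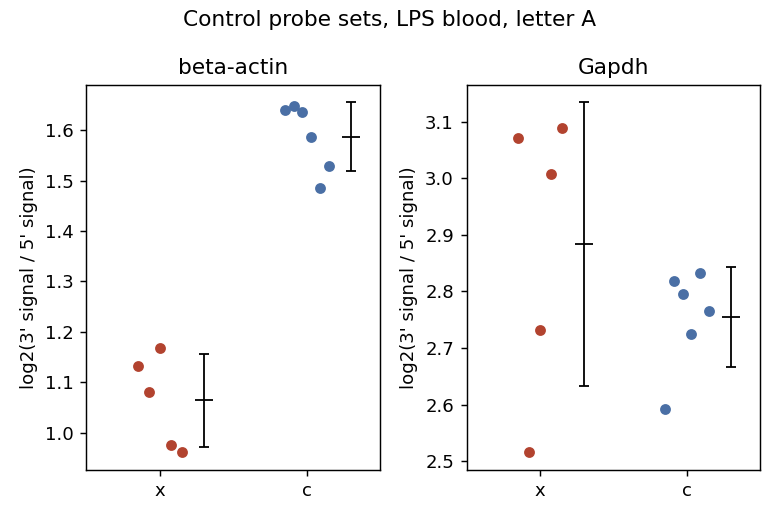
Log2 ratio of the 3′ to the 5′ signal for the control probe sets of beta-actin and of Gapdh, with 1 point per array for the 5 x arrays and the 6 c arrays. Black marks give the mean and SD. The beta-actin ratio is at most 1.17 on x arrays and at least 1.49 on c arrays, and the Gapdh ratios overlap.

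Some arrays stood apart from their group. The x array of replicate 2 had the lowest median correlation with the other 10 arrays, 0.954, against 0.975 to 0.983 for those 10, and it alone lay at -46.0 on the first principal component (the other arrays lay between -9.95 and 22.5). The c arrays of replicates 5 and 6 had levels of neutrophil and inflammation genes like those of the x arrays, as given below. The neutrophil and inflammation lists are given with all arrays and without c replicates 5 and 6, and some also without x replicate 2. The title numbers fall into 2 consecutive runs, with x replicates 1 and 2 and c replicates 1 to 3 in the first and the remaining arrays in the second. The labels do not call the runs batches.

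Values are log2(intensity + 16) after quantile normalization within blood, and differences are x minus c on that scale, with the standard error (SE) of limma's fit. Of 22626 probe sets, 717 were higher and 421 were lower in x at an adjusted p under 0.05 (limma, Benjamini-Hochberg over all probe sets), which is 3.17% and 1.86% of those tested and 5.03% together. Without quantile normalization 432 were higher and 367 lower, so that 54.1% of the calls were rises, against 63% with it. Counted by gene, with the brightest probe set standing for each, 402 of 12393 genes were higher (3.24%) and 228 were lower (1.84%), 5.08% together. These differences were small. The median size among genes that passed was 0.373 log2, 85.9% of the probe sets that passed changed by less than 1.5-fold, and 7 changed by at least 2-fold. The x and c values did not overlap for 1169 probe sets (5.17%), 672 of them with x above c and 497 with x below c.

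The 15 genes with the largest rises in x are given first, and they were led by Frg1, Cfp and Psme3. Frg1, a nuclear protein linked to RNA processing, had 8.49, 8.06, 8.63, 8.52 and 8.75 on the x arrays. On the c arrays its lowest, median and highest values were 7.25, 7.29 and 7.61. All x arrays thus lay above all c arrays, and the difference was 1.10 ± 0.12 (2.15-fold, adjusted p = 0.00373). Psme3, the gamma subunit of the proteasome activator PA28, had 10.64, 11.15, 10.83, 10.45 and 10.21 on x arrays, against 9.31, 9.73 and 9.83 on c arrays (lowest, median and highest), a difference of 1.01 ± 0.17 (adjusted p = 0.0115). Ube2o, a ubiquitin-conjugating enzyme with ligase activity, rose by 0.95 ± 0.22 (adjusted p = 0.0400), with x replicate 5 below the highest c array. Ube2a, another ubiquitin-conjugating enzyme that acts in DNA repair, rose by 0.89 ± 0.19 (adjusted p = 0.0286), also with 1 overlap of the groups, at x replicate 2. Ubl5, a small ubiquitin-like protein needed for splicing, rose by 0.75 ± 0.17 (adjusted p = 0.0331), and its groups overlapped too.

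Cfp, Cst3, Slc2a3, Lsp1 and Gpsm3 were also among the 15. Cfp, which encodes properdin, the factor that stabilizes the alternative complement convertase and is stored in neutrophils, had 8.80, 8.88, 8.13, 8.22 and 9.01 on x arrays. On the c arrays Cfp had 7.03, 7.39 and 8.22 at its lowest, median and highest, and its groups overlapped. The difference was 1.05 ± 0.26 (2.07-fold, adjusted p = 0.0482). Cst3, the cysteine protease inhibitor cystatin C, had 10.71, 10.12, 10.41, 10.84 and 10.83 on x arrays, against 9.46, 9.67 and 9.92 on c arrays. Each x array exceeded each c array, by a mean difference of 0.92 ± 0.14 (adjusted p = 0.00890). Slc2a3, the glucose transporter GLUT3, rose by 0.83 ± 0.13 (adjusted p = 0.00956). Lsp1, an actin-binding protein of leukocytes, rose by 0.76 ± 0.13 (adjusted p = 0.0148), and Gpsm3, a leukocyte modulator of G protein signaling, by 0.75 ± 0.17 (adjusted p = 0.0389).

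Of the 15 largest rises, that of Wbp2 had the smallest p. It encodes a WW domain-binding coactivator. Its x arrays had 9.22, 9.19, 9.14, 9.05 and 8.88, and its c arrays had 8.24, 8.35 and 8.46 at the lowest, median and highest. The groups did not overlap, and the difference was 0.74 ± 0.066 (adjusted p = 0.00187). Aftph, an adaptor of clathrin-coated vesicles, rose by 0.73 ± 0.10 (adjusted p = 0.00603). Ost4, a subunit of the oligosaccharyltransferase of the endoplasmic reticulum, rose by 0.82 ± 0.14 (adjusted p = 0.0121), and Tmem9b by 0.75 ± 0.15 (adjusted p = 0.0218). Htr5b, a serotonin receptor gene, rose by 0.88 ± 0.17 (adjusted p = 0.0203), with x arrays from 7.42 to 8.27 and c arrays from 6.61 to 7.32.

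Map3k12 and Zfp825 led the 15 largest falls. Map3k12, the dual leucine zipper kinase upstream of JNK, had 7.15, 7.11, 7.25, 7.44 and 7.11 on x arrays. Its c arrays had 7.99, 8.24 and 8.29 at the lowest, median and highest. The groups lay over 0.5 log2 apart at their nearest points, and Map3k12 fell by a difference of -0.99 ± 0.076 (0.504 times the c level, adjusted p = 0.00118). Zfp825, a zinc finger gene, had 8.38, 7.64, 8.23, 8.35 and 7.97 on x arrays, against 8.90, 9.09 and 9.27 on c arrays, a difference of -0.98 ± 0.13 (adjusted p = 0.00603). Taok3 and Sik1, both protein kinases, differed by -0.79 ± 0.19 (adjusted p = 0.0403) and by -0.78 ± 0.13 (adjusted p = 0.0122). Spry2, an inhibitor of receptor tyrosine kinase signaling, differed by -0.77 ± 0.16 (adjusted p = 0.0276).

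Among regulators of chromatin and transcription, Ing1, a reader of histone methylation, differed by -0.87 ± 0.21 (adjusted p = 0.0412), and Set, a histone chaperone and inhibitor of protein phosphatase 2A, by -0.83 ± 0.19 (adjusted p = 0.0389). Atf2, a transcription factor of the stress kinases, differed by -0.76 ± 0.19 (adjusted p = 0.0488), and Tsc22d4 by -0.87 ± 0.13 (adjusted p = 0.00916). Replicate 2 was the lowest x array for each of these 4 genes. Among genes of RNA, Wtap, a subunit of the complex that methylates adenosine in messenger RNA, had 10.64, 10.35, 10.86, 10.87 and 10.94 on x arrays. The c arrays had 11.18, 11.55 and 11.75, all above the highest x array, and the difference was -0.78 ± 0.12 (adjusted p = 0.0105). Smndc1, a splicing factor, differed by -0.73 ± 0.14 (adjusted p = 0.0198). Hars, the histidyl-tRNA synthetase, differed by -0.79 ± 0.18 (adjusted p = 0.0372). Gaa, the lysosomal glucosidase, and Nipsnap2, a mitochondrial protein, differed by -0.78 ± 0.10 (adjusted p = 0.00519) and by -0.73 ± 0.086 (adjusted p = 0.00385).

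**Figure D2:**
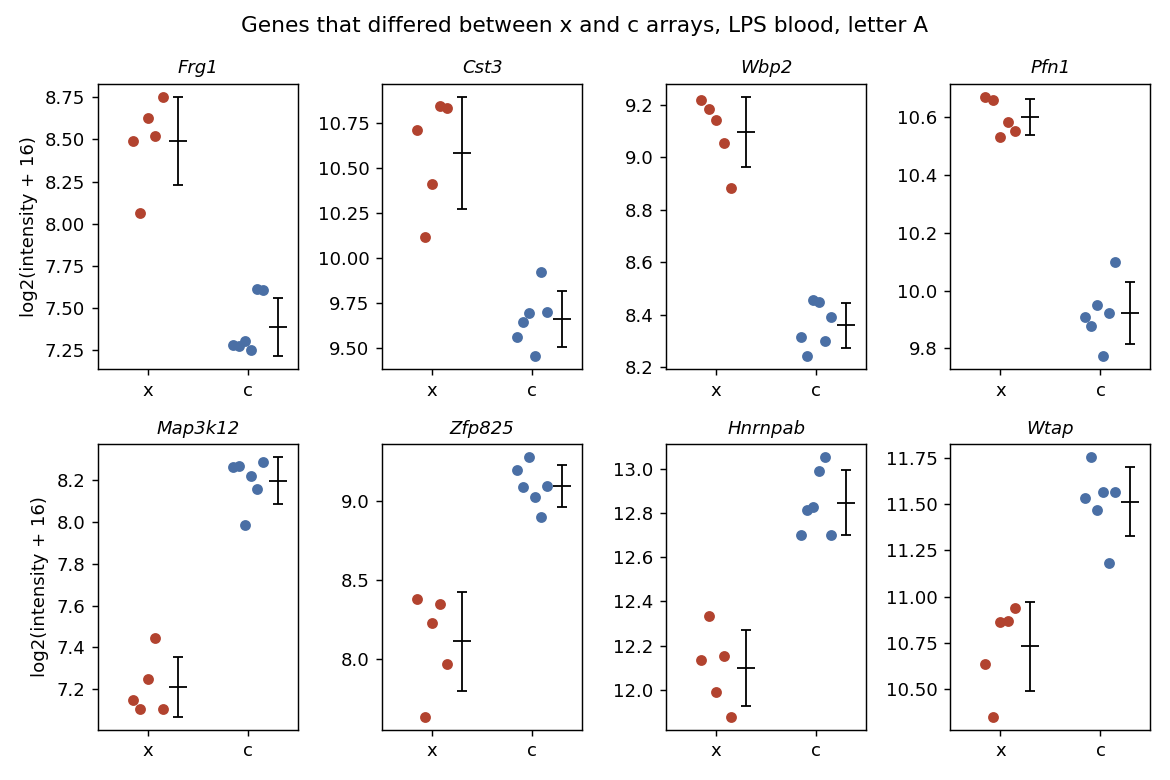
Log2(intensity + 16) of 8 genes on the 5 x arrays and the 6 c arrays, with 1 point per array and the mean and SD in black. Frg1, Cst3, Wbp2 and Pfn1 are higher and Map3k12, Zfp825, Hnrnpab and Wtap lower on every x array than on any c array.

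Other probe sets of the same genes often did not move with the one that passed. For 701 probe sets that passed, the gene has another probe set. Pairing each with every other probe set of its gene gave 1471 pairs, of which 769 (52.3%) had the same direction. In 112 pairs (7.61%) the other probe set passed in the same direction and in 48 in the opposite one. Of all probe sets 3.17% were higher and 1.86% lower. A pair of 2 passed probe sets is counted from either side, and 20 genes had calls in both directions. With dim probe sets left out, those under the 30th percentile of the mean, 54.1% of 941 pairs had the same direction. Over all pairs the share was 64.7% for x minus c in letter E of LPS blood, 79.5% in letter A of burn blood and 68.2% in letter A of trauma-hemorrhage blood. Of the 30 genes with the largest differences, 19 have another probe set. For 12 of these at least 1 other probe set lay on the opposite side of 0. The other probe sets of Map3k12 differed by -0.10 and 0.14, those of Psme3 by 0.10 and 0.16, and that of Zfp825 by 0.051. These calls are therefore calls of a probe set and were not shared by all of the gene's probes. Probe sets whose name ends in x_at, which can share probes with other sequences, fell more often: 6.02% of 1512 were lower, against 1.43% of the 15605 that end in a plain at. They were 91 of the 421 falls, and plain ones were 223. In letter E of LPS blood the shares lower were 13.4% and 3.65%. They were 12.9% and 6.86% in letter A of burn blood, and 15.8% and 18% in letter A of trauma-hemorrhage blood. The probe sets used for Zfp825, Gaa and Pgk1, which fell, and for Ndufa3 and Rpl38, which rose, end in x_at.

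**Figure D3:**
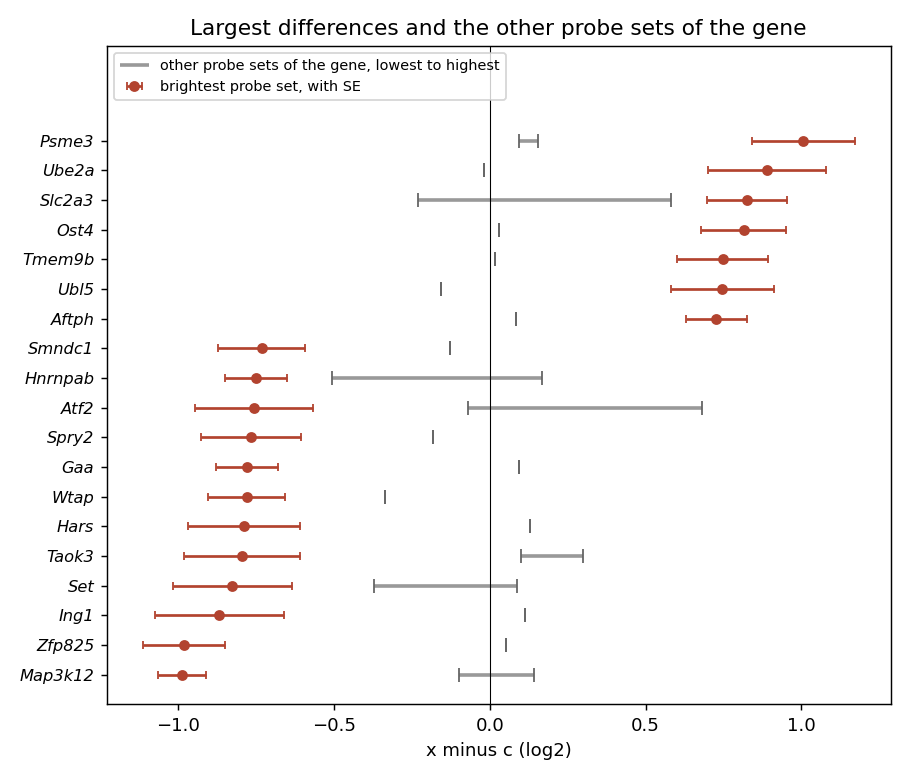
Difference x minus c (log2) of the brightest probe set, with its SE, for the 19 of the 30 genes with the largest differences that have another probe set. Grey marks run from the lowest to the highest difference of the gene's other probe sets. In 12 genes a grey mark lies on the opposite side of 0 from the red point.

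In 27 lists of pathways and cell type markers, 465 different genes were measured, and 9 were higher and 5 were lower, against 3.24% and 1.84% of all genes tested. The share of list genes that passed was thus not above that of all genes. The lists are described by role below, each with its count and median, beside a median of 0 over all genes. Counts at an unadjusted p under 0.05 stand beside 2674 of all 12393 genes, and counts of positive differences beside 6179.

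None of the neutrophil granule and maturation genes passed. Of 22 measured members, 0 were called by limma, 3 had an unadjusted p under 0.05, 20 had a positive difference, and the median difference was 0.41. Over all 12393 genes, 2674 had an unadjusted p under 0.05 and 6179 had a positive difference. Lcn2, a siderophore-binding granule protein, had 10.21, 11.55, 8.77, 9.36 and 10.53 on x arrays. On c arrays it had 7.67, 7.80, 8.11, 7.55, 10.89 and 11.96 in replicates 1 to 6. The first 4 of these c arrays lay below every x array, and c replicates 5 and 6 lay among the highest x arrays or above them. The difference of Lcn2 was 1.09 ± 0.91 (adjusted p = 0.562).

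The same split of the c group was seen for other genes of neutrophils. Mmp8, the neutrophil collagenase, had 10.60, 11.09, 9.08, 9.73 and 10.64 on x arrays. On c arrays it had 8.02, 8.25, 8.63, 7.77, 10.09 and 11.73, and the difference was 1.14 ± 0.72 (adjusted p = 0.414). Pglyrp1, a granule protein that binds peptidoglycan, had 10.18, 10.53, 9.35, 9.68 and 10.21 on x arrays. Its c values were 9.46 and 10.29 in replicates 5 and 6 and between 7.89 and 8.47 in the other 4, with a difference of 1.30 ± 0.45 (adjusted p = 0.128). Cd177, a neutrophil surface protein, differed by 1.21 ± 0.45 (adjusted p = 0.157), and Csf3r, the receptor of the granulocyte growth factor G-CSF, by 0.57 ± 0.20 (adjusted p = 0.129). Mmp9, a gelatinase, differed by 0.42 ± 0.21 (adjusted p = 0.302). Hp, which encodes haptoglobin, differed by 0.76 ± 0.48 (adjusted p = 0.423), and S100a9, a subunit of calprotectin, by 0.42 ± 0.33 (adjusted p = 0.534).

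Ltf and Ngp were highest on x replicate 2. Ltf, which encodes lactoferrin, had 6.86, 10.28, 6.79, 7.01 and 7.05 on x arrays, and 6.82 to 7.16 on c arrays. Its only high value was that of x replicate 2, and without that array the difference was -0.060 (adjusted p = 0.730), against 0.61 ± 0.57 (adjusted p = 0.609) with it. Ngp, another granule protein, had 8.89, 11.97, 7.99, 8.13 and 8.87 on x arrays, and on c arrays 7.65, 7.75 and 10.59 at the lowest, median and highest. These 2 genes and Lcn2 and S100a9 were named after their values were seen. The mean level of the neutrophil list was 8.82 to 9.86 on x arrays and 8.34 to 9.71 on c arrays, of which replicates 5 and 6 had 9.29 and 9.71. With c replicates 5 and 6 left out 5 of 22 members were higher in x (2.14% of all genes were), with a median of 0.663. With x replicate 2 left out as well it was 7 of 22, with a median of 0.566. These arrays were set aside because of their values for these genes, so those counts follow in part from that choice.

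**Figure D4:**
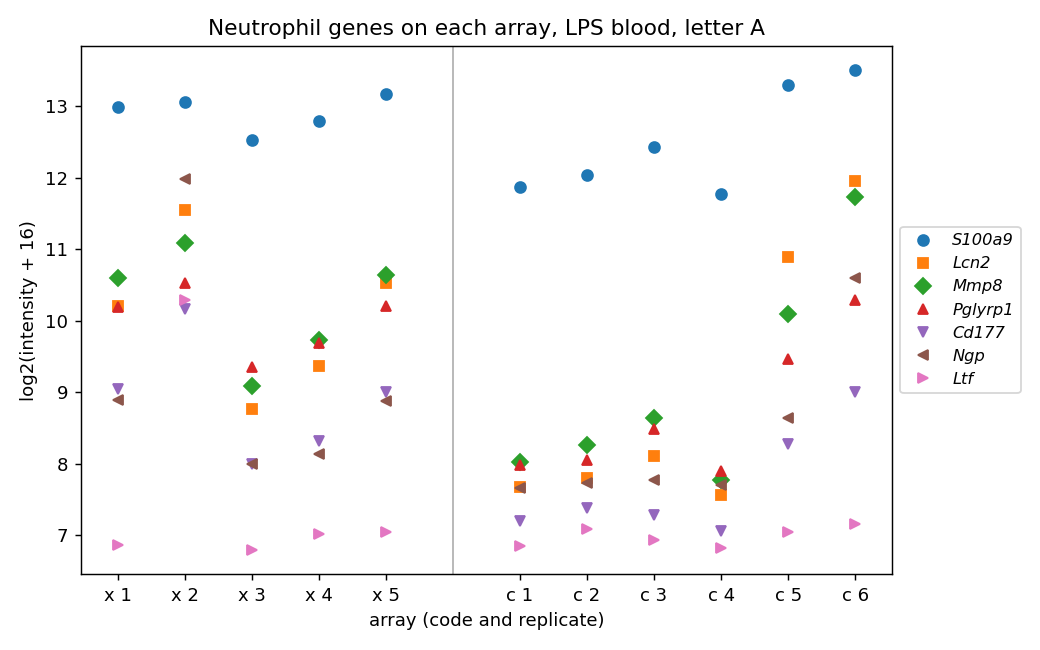
Log2(intensity + 16) of 7 neutrophil genes on each array, with the 5 x arrays on the left and the 6 c arrays on the right. On c replicates 1 to 4 all but Ltf are lower than on any x array, c replicates 5 and 6 resemble the x arrays, and Ltf is high on x replicate 2 alone.

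Genes of LPS sensing differed by -0.69 to 0.49. Of the 17 measured, 13 had a positive difference and 5 had an unadjusted p under 0.05 in limma, against 6179 and 2674 of all 12393 genes. Tollip, which binds the receptor kinases of the Toll-like receptor and interleukin 1 pathways and dampens them, had 8.40, 8.31, 8.10, 8.15 and 8.12 on x arrays. Its c arrays had 7.77, 7.88 and 7.96 at the lowest, median and highest, and all lay below the x arrays. Tollip rose by 0.35 ± 0.063 (1.27-fold, adjusted p = 0.0170), and its other probe set differed by 0.030. It was the only 1 of 17 measured members of the list that passed, and the list median was 0.19. The adaptor Myd88 differed by 0.49 ± 0.15 (adjusted p = 0.103), with overlapping groups. Lbp, the plasma carrier of LPS, differed by 0.23 ± 0.067 (adjusted p = 0.0808), and Tlr1, which pairs with Tlr2 to sense lipopeptides, by -0.69 ± 0.23 (adjusted p = 0.111). With c replicates 5 and 6 left out, 5 of the 17 were higher (2.14% of all genes were), a count that follows in part from the choice of these arrays by their inflammation genes.

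Downstream of these receptors, 0 of 14 NF-kB subunits and feedback inhibitors passed in limma, with 5 at an unadjusted p under 0.05 and a median of 0.035. Bcl3, a nuclear partner of NF-kB subunits, differed by 0.90 ± 0.38 (adjusted p = 0.206), Nfkbie, an inhibitor of NF-kB, by 0.61 ± 0.18 (adjusted p = 0.0802), and the subunit Relb by 0.51 ± 0.16 (adjusted p = 0.0954). On c replicate 6 these 3 genes had 9.11, 7.88 and 7.37, the highest c value of each. Among 27 inflammatory cytokines, chemokines and inducible enzymes 1 passed, Ptgs2, the inducible cyclooxygenase of prostaglandin synthesis. It had 7.18, 7.20, 7.09, 7.28 and 7.08 on x arrays, against 6.83, 6.96 and 7.02 on c arrays (lowest, median and highest), a difference of 0.22 ± 0.050 (1.16-fold, adjusted p = 0.0371). Limma called 0 genes of that list after scaling to a common median and when any 1 of x replicates 1 to 4 or c replicates 1 to 5 was left out. Interleukin 1 alpha (Il1a) differed by 0.28 ± 0.087 (adjusted p = 0.0943). Of 16 acute phase and secreted defence genes 0 passed, with 3 at an unadjusted p under 0.05 and a median of 0.088. Cebpb, a transcription factor of the acute phase, differed by 0.92 ± 0.31 (adjusted p = 0.120) and Slpi, a protease inhibitor, by 0.88 ± 0.30 (adjusted p = 0.125). Without c replicates 5 and 6, 4 of the 16 acute phase genes were higher with a median of 0.51, against 2.14% of all genes. So were 2 of the 14 NF-kB genes, with a median of 0.163. The same held for 2 of 30 cytokine and chemokine receptors and 2 of 18 myeloid lectins and Fc receptors (0 of either with all arrays). Of the 27 cytokines, chemokines and enzymes 0 were higher without c replicates 5 and 6, with a median of 0.205. Without x replicate 2 as well, 5 of the 16 acute phase genes (median 0.32) and 4 of the 14 NF-kB genes were higher, against 3.81% of all genes. Of the 27 cytokines, chemokines and enzymes 1 was then higher, with a median of 0.197. The acute phase list shares Lcn2, Pglyrp1 and Hp with the neutrophil list, and these counts too follow in part from the choice of the arrays.

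Interferon response genes gave 3 rises and 0 falls among 32 measured, with a median of 0.13. The 3 rises depended on the scaling and on single arrays: limma called 0 without quantile normalization, 1 after scaling to a common median, 0 without x replicate 1 or without c replicates 1 or 3, and 1 without x replicate 4 or without c replicates 2 or 4. Irf9, the DNA-binding part of the factor that carries type I interferon signals, had 8.57, 8.70, 8.47, 8.56 and 8.59 on x arrays. Irf9 had 8.27, 8.33 and 8.45 on c arrays, below all x arrays, and the difference was 0.24 ± 0.049 (1.18-fold, adjusted p = 0.0258). Zbp1, a sensor of Z-form nucleic acids, rose by 0.39 ± 0.079 (adjusted p = 0.0246), with 1 c array, replicate 5, among the x values. Ifitm3, a membrane protein that restricts virus entry, rose by 0.50 ± 0.12 (adjusted p = 0.0408), also with overlap. Psmb9, an immunoproteasome subunit, differed by 0.18 ± 0.045 (adjusted p = 0.0518). In JAK and STAT signaling 1 of 21 members passed, Ptpn2, a phosphatase that switches off JAK kinases. It had 8.13, 8.19, 8.50, 8.53 and 8.74 on x arrays, against 8.98, 9.08 and 9.23 on c arrays, and fell by a difference of -0.67 ± 0.10 (adjusted p = 0.00947), while its 3 other probe sets differed by -0.47 to 0.023.

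The remaining list members that passed belong to oxidative defence, glycolysis, protein folding and the cell cycle. Rac2, the GTPase that activates the NADPH oxidase of neutrophils, had 10.20, 10.70, 10.30, 10.20 and 10.35 on x arrays, against 9.66, 9.79 and 9.98 on c arrays at the lowest, median and highest. The groups did not overlap, and Rac2 rose by 0.55 ± 0.091 (1.47-fold, adjusted p = 0.0117). Nqo1, a quinone reductase, differed by -0.41 ± 0.082 (adjusted p = 0.0235). In glycolysis Pkm, pyruvate kinase, rose by 0.68 ± 0.13 (adjusted p = 0.0228), and Pgk1, phosphoglycerate kinase, fell, with a difference of -0.63 ± 0.12 (adjusted p = 0.0202). Together with the transporter Slc2a3 these gave 2 rises and 1 fall among 17 members, with a median of -0.078. Atf4, a transcription factor of the integrated stress response, rose by 0.24 ± 0.055 (adjusted p = 0.0355), although another of its probe sets passed in the opposite direction (-0.70). Dnajb1, a cochaperone of the heat shock response, differed by -0.64 ± 0.14 (adjusted p = 0.0345), and Cdc20, an activator of the anaphase-promoting complex, by -0.22 ± 0.043 (adjusted p = 0.0232), 1 of 23 cell cycle genes. Without quantile normalization limma called 0 genes of the heat shock and unfolded protein list, which holds Atf4 and Dnajb1.

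Markers of the blood cell types did not pass. Limma called 0 of 16 B cell, 0 of 18 T cell, 0 of 15 NK cell, 0 of 16 monocyte, 0 of 13 platelet and 0 of 15 erythroid genes, with 3, 2, 3, 1, 4 and 5 of them at an unadjusted p under 0.05. Their medians were -0.053, -0.022, -0.077, 0.050, 0.13 and 0.068. All measured B cell, T cell, monocyte, platelet and erythroid markers lay above the floor on all 11 arrays. The erythroid gene Alas2, the first enzyme of heme synthesis in red cell precursors, had 13.46, 13.72, 13.42, 13.26 and 13.46 on x arrays and 13.02 to 13.21 on c arrays, without overlap, and differed by 0.32 ± 0.091 (adjusted p = 0.0733). Gp9, a platelet receptor subunit, differed by 0.58 ± 0.15 (adjusted p = 0.0506), and 12 of the 13 platelet genes had a positive difference. Among lymphocyte markers Cd79a, a chain of the B cell receptor, differed by 0.59 ± 0.21 (adjusted p = 0.136), Ccr7, a homing receptor, by 0.55 ± 0.15 (adjusted p = 0.0714), Cd8a by -0.21 ± 0.065 (adjusted p = 0.0900) and Klrd1, an NK cell receptor, by -0.54 ± 0.26 (adjusted p = 0.267). Of monocyte genes Irf8 differed by 0.53 ± 0.20 (adjusted p = 0.153) and Cd68 by 0.59 ± 0.31 (adjusted p = 0.310). Among 14 markers of stroma and endothelium, which are not blood cells, 0 passed, with 2 at an unadjusted p under 0.05, a median of 0.048, and a mean level of 7.12 to 7.38 on x arrays and 7.12 to 7.32 on c arrays.

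Because most genes that passed lie outside the lists, 10 gene families were counted after the values were seen, and they are given as a description. Their counts stand beside 3.24% of all genes higher and 1.84% lower, and nothing particular to a family is read from them. Of all 12393 genes, 2674 had an unadjusted p under 0.05 and 6214 had a negative difference. Of 31 genes of actin and its regulators 5 rose and 0 fell, with a median of 0.090. Pfn1, profilin, which feeds actin monomers to growing filaments, had 10.67, 10.66, 10.53, 10.58 and 10.55 on x arrays. On the c arrays Pfn1 had 9.77, 9.92 and 10.10 at the lowest, median and highest, and the difference was 0.68 ± 0.056 (1.60-fold, adjusted p = 0.00118). Arpc1a, a subunit of the Arp2/3 complex that branches filaments, rose by 0.50 ± 0.083 (adjusted p = 0.0118), and Capzb and Capza1, which together cap filament ends, rose by 0.52 ± 0.11 (adjusted p = 0.0260) and by 0.47 ± 0.10 (adjusted p = 0.0274). For Capza1 another probe set passed in the opposite direction (-0.60). The fifth was Lsp1, above.

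Among 74 subunits of oxidative phosphorylation 9 rose and 2 fell, with a median of 0.0080, and 32 had an unadjusted p under 0.05. Atp5b, the catalytic beta subunit of ATP synthase, had 9.75, 10.10, 9.93, 9.67 and 9.54 on x arrays, against 8.90, 9.03 and 9.26 on c arrays, and rose by 0.73 ± 0.11 (adjusted p = 0.00806). Cox6c of complex IV rose by 0.62 ± 0.12 (adjusted p = 0.0192), Ndufa3 of complex I by 0.57 ± 0.062 (adjusted p = 0.00318) and Uqcrh of complex III by 0.55 ± 0.069 (adjusted p = 0.00519). Translation initiation factors gave 4 rises and 0 falls among 35, led by Eif6 at 0.48 ± 0.055 (adjusted p = 0.00373). Cytosolic ribosomal proteins gave 4 rises and 1 fall among 47, among the rises Rpl38 at 0.35 ± 0.058 (adjusted p = 0.0116). Mitochondrial ribosomal proteins gave 2 rises and 0 falls among 74.

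Of 18 hnRNP genes, which package nascent transcripts and guide splicing, 0 rose and 3 fell, 15 had a negative difference, and the median was -0.27. Hnrnpab had 12.13, 12.34, 11.99, 12.15 and 11.88 on x arrays. Its c arrays had 12.70, 12.82 and 13.05, above all x arrays, and the difference was -0.75 ± 0.10 (adjusted p = 0.00595). The 6 other probe sets of Hnrnpab ranged from -0.51 to 0.17, and 1 passed in the opposite direction. Hnrnpu differed by -0.58 ± 0.12 (adjusted p = 0.0260) and Hnrnpul1 by -0.56 ± 0.092 (adjusted p = 0.0118). Limma called 0 of 9 SR splicing factors, with 3 at an unadjusted p under 0.05, a negative difference in all 9 and a median of -0.14. The mean level of the hnRNP genes was 8.71 to 9.26 on x arrays, against 9.27 to 9.42 on c arrays. DEAD-box RNA helicases gave 1 rise and 2 falls among 28. Proteasome subunits and activators moved in both directions, with 3 rises and 2 falls among 48: Psmb6, a catalytic subunit, rose by 0.52 ± 0.093 (adjusted p = 0.0154), while Psma5, a subunit of the core ring, and Psmd11, a subunit of the lid, differed by -0.70 ± 0.17 (adjusted p = 0.0443) and by -0.51 ± 0.10 (adjusted p = 0.0242). Ubiquitin-conjugating enzymes gave 2 rises and 1 fall among 27.

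The arrays of letter E, which the labels assign to LPS infusion, give the same contrast of codes in other samples, 5 x and 6 c arrays. There 1171 probe sets were higher in x (5.18%) and 1081 lower (4.78%). Of the 717 probe sets higher in x in letter A, 688 (96.0%) were also higher in letter E, against 45.9% of all probe sets, and 274 (38.2%) passed there. These 274 made up 23.4% of the rises of letter E. Of the 421 lower in letter A, 401 (95.2%) were also lower in letter E, against 54.1% of all probe sets, and 226 (53.7%) passed there. None passed in opposite directions. The beta-actin ratio separated the codes in letter E as well, with 0.938 to 1.27 on x arrays and 1.51 to 1.65 on c arrays.

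For several of the genes that led in letter A, the 2 contrasts were of similar size. Map3k12 differed by -0.99 ± 0.076 in letter A and by -0.95 ± 0.11 in letter E, Wtap by -0.78 ± 0.12 and by -0.79 ± 0.076, Pfn1 by 0.68 ± 0.056 and by 0.71 ± 0.14, and Frg1 by 1.10 ± 0.12 and by 1.03 ± 0.11. Neutrophil genes had a median of 0.41 in letter A and of 1.26 in letter E, where 15 of 22 rose. Lcn2 differed by 1.09 ± 0.91 in letter A and by 3.33 ± 0.63 in letter E, and Pglyrp1 by 1.30 ± 0.45 and by 2.81 ± 0.33. The difference between the contrasts was tested directly, and limma called 0 of 22626 probe sets, with 1560 at an unadjusted p under 0.05. The smallest p among genes belonged to Cdh11, a cadherin of mesenchymal cells, whose contrast differed by 0.11 ± 0.016 between the letters (adjusted p = 0.0561). It was followed by Cyfip2 at -0.43 ± 0.083 (adjusted p = 0.228) and Tmem176b at 0.56 ± 0.10 (adjusted p = 0.228).

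**Figure D5:**
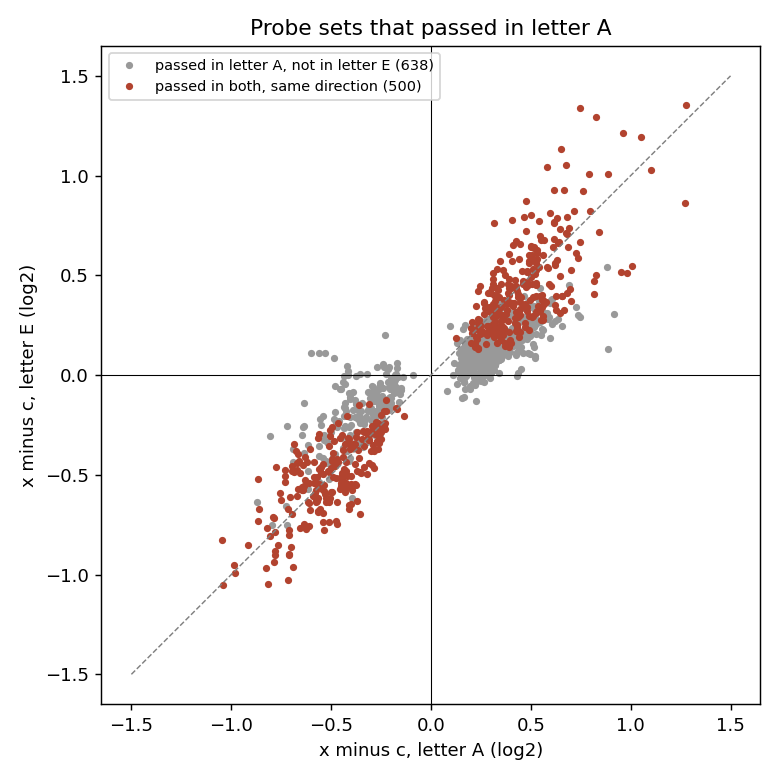
Difference x minus c (log2) in letter A and in letter E for the 1138 probe sets that passed in letter A. The 500 that also passed in letter E in the same direction are red, and the 638 that did not are grey. The dashed line marks equal differences.

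The codes were also compared in sham-labelled arrays of the other models, with 4 x and 5 c arrays of letter A in burn blood and 5 of each in trauma-hemorrhage blood. These sets have floors of their own and were set beside LPS blood only as differences. Against burn blood, 2426 probe sets differed in x minus c (10.7%), 1547 with a higher and 879 with a lower difference in LPS blood. The genes named with a lower difference in LPS blood are those with the largest such differences. As lists, 0 of 27 inflammatory cytokines, chemokines and enzymes had a higher and 1 a lower difference in LPS blood, and of 14 NF-kB genes 3 had a higher and 1 a lower one. Of 18 myeloid lectin and Fc receptor genes 0 had a higher and 6 a lower difference, and of 12 glucocorticoid-induced genes 0 and 6. For 30 cytokine and chemokine receptors these counts were 2 and 4, and for 22 neutrophil genes 0 and 3. Of all genes 6.87% had a higher and 4.07% a lower difference. The glucocorticoid and receptor lists share Il1r2 and Cxcr4. Jdp2, a repressor of the AP-1 family, differed by 0.032 ± 0.42 in LPS blood and by 3.57 ± 0.15 in burn blood, so that the contrasts differed by -3.54 ± 0.50 (adjusted p = 2.2e-04). Il1r2, the decoy receptor of interleukin 1, differed by 0.95 ± 0.62 in LPS blood and by 3.86 ± 0.10 in burn blood (adjusted p = 0.0132 for the difference). Tgm2 (a transglutaminase), Basp1 and Ets2 (a transcription factor) had contrasts lower in LPS blood by -3.22 ± 0.36 (adjusted p = 2.6e-05), -3.07 ± 0.44 (adjusted p = 2.3e-04) and -3.07 ± 0.54 (adjusted p = 0.00121).

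Cd79a, Ltb and Cd55 had a higher difference in LPS blood than in burn blood. Cd79a differed by 0.59 ± 0.21 in LPS blood and by -1.85 ± 0.11 in burn blood, and the contrasts differed by 2.43 ± 0.26 (adjusted p = 2.1e-05). Ltb, a lymphotoxin chain, differed by 0.45 ± 0.12 in LPS blood and by -1.82 ± 0.25 in burn blood (adjusted p = 4.7e-05 for the difference), and Cd55, a complement inhibitor on blood cells, by 0.057 ± 0.23 and by -1.86 ± 0.14 (adjusted p = 4.4e-04). Of 16 B cell markers 10 had a higher difference in LPS blood than in burn blood and 0 a lower one, against 6.87% and 4.07% of all genes. Of 18 T cell markers 3 had a higher difference and 0 a lower one, and of 15 NK cell genes 2 and 0.

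Against trauma-hemorrhage blood, 5966 probe sets differed (26.4%), 3323 with a higher and 2643 with a lower difference in LPS blood. Saa3, an acute phase protein, differed by 0.41 ± 0.53 in LPS blood and by 4.46 ± 0.25 in trauma-hemorrhage blood, and the contrasts differed by -4.05 ± 0.62 (adjusted p = 2.2e-04). Gbp2, a GTPase induced by interferon, differed by -0.38 ± 0.25 in LPS blood and by 3.60 ± 0.26 in trauma-hemorrhage blood (adjusted p = 3.7e-06 for the difference), and Ms4a6d by -0.026 ± 0.39 and by 3.62 ± 0.32 (adjusted p = 1.2e-04). Of 32 interferon response genes 25 had a lower difference in LPS blood and 1 a higher one, against 11% and 16% of all genes. Some genes that were higher in x in LPS blood had negative differences in trauma-hemorrhage blood. Psme3 differed by 1.01 ± 0.17 in LPS blood and by -0.94 ± 0.15 in trauma-hemorrhage blood (adjusted p = 3.0e-05), Ube2o by 0.95 ± 0.22 and by -0.80 ± 0.28 (adjusted p = 0.00192), and Slc46a1, a transporter of folate and heme, by 0.64 ± 0.15 and by -1.07 ± 0.16 (adjusted p = 7.5e-05). Pglyrp1, which did not pass in LPS blood, differed by 1.30 ± 0.45 there and by -0.43 ± 0.20 in trauma-hemorrhage blood (adjusted p = 0.0213). Within letter A alone, 30.4% of the probe sets differed between x and c in trauma-hemorrhage blood and 13.4% in burn blood. The beta-actin ratio was 1.39 to 1.65 on x arrays and 1.94 to 2.28 on c arrays in letter A of trauma-hemorrhage blood, and 1.39 to 1.55 and 1.37 to 1.74 in letter A of burn blood.

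The number of calls within LPS blood changed when single arrays were left out. All 1138 probe sets kept their direction in each of those fits, which share most of their arrays with the main one. With 1 array left out at a time limma called between 469 probe sets (without x replicate 1) and 1307 (without x replicate 5). The count also fell by over 1.5 times without x replicates 3 (561) or 4 (692) and without c replicates 1 (572), 2 (534), 3 (690), 4 (664) or 5 (736). Without c replicates 5 and 6 it was 776, and without x replicate 2 as well 1554. With the beta-actin ratio as a covariate limma called 0, with 3682 at an unadjusted p under 0.05, against 4802 in the main fit. In that fit 1000 of the 1138 probe sets kept their direction. Within 1 title-number run it called 5 probe sets in the first and 0 in the second, with 4359 and 3227 at an unadjusted p under 0.05.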

How the data were processed

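RNA of mouse blood leukocytes was measured on 1-colour Affymetrix arrays. The authors deposited linear intensities, 1 per probe set and array, for the whole series. Their computation and scaling are not given in the sources used here. The arrays limit the precision by their number.

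Without the 64 control probe sets, 22626 were tested. The platform annotation names 1 gene for 20380 of these, several for 691 and none for 1555, and was matched to RefSeq's GRCm38 gene table, which holds 20351 of those with 1 gene. Values were taken as log2(value + 16) and quantile normalized over the 64 blood arrays. Tests were those of limma 3.58.1 in R 4.3.3, moderated with a mean-variance trend and two-sided, with Benjamini-Hochberg adjustment over all probe sets at 0.05, with 1 term per group and, between sets, all 4 groups in 1 fit. For a gene, the probe set brightest on average over the 11 arrays was used. Array quality was compared by exact permutation over 462 splits. Only the limma fit of x minus c was tested on simulated data, with values drawn independently for each probe set and array.

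The text names genes among the 15 largest rises and falls that passed, the 6 list members with the smallest p and their partners, and the 6 largest on either side of each difference between contrasts. The comparison and the lists were chosen with earlier results of these data known, and the 10 families and the genes named from them after the values were seen. Alternatives were other pseudocounts, scalings, filters, fits and left-out arrays, the title-number run and the beta-actin ratio.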

Additional observations from a re-analysis of the deposited data

Results flagged for a closer look

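Single arrays stood far from the others of their group, by Dixon's 95% limit, in 17 of 234 groups of values tested. That limit flags about 1 in 20 groups by chance when they are independent and chosen beforehand. These groups were not: some genes were named after their values were seen, and list means hold genes that were also tested. The count is therefore not compared with chance. Replicate 2 of x was high for Ltf (10.28, next 7.05) and Ngp (11.97, next 8.89). It was low for Ing1 (8.41), Taok3 (6.40), Spry2 (7.09), Atf2 (7.05), Hnrnpu (9.42) and Psma5 (7.86), and for the mean level of dendritic cell and plasma cell markers (7.42, next 7.54). Replicate 6 of c was high for Ngp (10.59, next 8.64), Nfkbie (7.88, next 7.24) and Relb (7.37, next 6.94), and for the mean levels of NF-kB genes (8.83, next 8.35) and apoptosis genes (8.92, next 8.67), and low for that of MHC class II genes (9.33, next 9.62). Replicate 5 of c was high for Zbp1 (8.06, next 7.79) and for the mean level of interferon response genes (8.58, next 8.42). What sets these arrays apart was not tested.

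The contrast of x and c differed between LPS blood and the other models by a direct test. Against burn blood this held for 2426 probe sets, and the difference between contrasts was -3.54 for Jdp2, -3.22 for Tgm2, -3.07 for Basp1, -3.07 for Ets2, -2.91 for Il1r2, 2.43 for Cd79a, 2.27 for Ltb and 1.91 for Cd55. Against trauma-hemorrhage blood it held for 5966 probe sets, with -4.05 for Saa3, -3.98 for Gbp2, -3.65 for Ms4a6d, 1.95 for Psme3, 1.75 for Ube2o, 1.73 for Pglyrp1 and 1.71 for Slc46a1.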

How the results depend on the processing

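The count of 1138 probe sets stayed within 1.5 times under the other pseudocounts, scalings, variance settings, the low-value filter and the run as a block, although its rises alone fell to 432 without quantile normalization. It was 2109 with the 4 LPS blood groups in 1 fit, 2095 with all 12 blood groups, 2056 with array weights, 647 with 1 probe set per gene (of fewer tested) and 7 with a 2-fold threshold. Within the first title-number run it was 5 and within the second 0, with fewer arrays. With 1 array left out at a time it ranged from 469 to 1307, and was 469, 561 and 692 without x replicates 1, 3 and 4, and 572, 534, 690, 664 and 736 without c replicates 1 to 5. With the beta-actin ratio as a covariate it was 0, with 3682 at an unadjusted p under 0.05, against 4802 in the main fit. The median SE of the 1138 was then 0.252, against 0.0702 without the covariate, since the ratio separates the codes. Without c replicates 5 and 6 the count was 776, and without x replicate 2 as well it was 1554. These 2 alternatives were chosen after seeing the data.

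The 14 list genes that passed became 47 with the 4 LPS groups, 34 with the 12 blood groups, 31 with array weights, 0 in either run and 0 with the covariate, and 6 to 22 with 1 array left out. Without c replicates 5 and 6 they were 33, and without x replicate 2 as well 52. Between letters A and E the count of 0 was 1 with 12 groups, 196 with array weights, and 0 to 1 with 1 array left out. The counts against burn and trauma-hemorrhage blood kept within 1.5 times.

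Of the 1138 probe sets, 1000 kept their direction with the beta-actin ratio as a covariate. Of 86 named genes 29 changed sign with the covariate, where none passed. These were Pglyrp1 (-1.44), Csf3r (-0.79), Cd177 (-0.83), Mmp8 (-3.13), Mmp9 (-0.57), Hp (-3.13), Lcn2 (-4.78), Ngp (-1.34), S100a9 (-1.90), Zbp1 (-0.12), Ifitm3 (-0.15), Psmb9 (-0.022), Myd88 (-0.63), Lbp (-0.0025), Bcl3 (-1.16), Il1a (-0.29), Cebpb (-0.74), Slpi (-1.60), Pkm (-0.073), Cd8a (0.20), Irf8 (-0.46), Cd68 (-1.42), Cfp (-0.53), Ube2a (-0.61), Lsp1 (-0.27), Gpsm3 (-0.74), Ubl5 (-0.55), Capzb (-0.26) and Capza1 (-0.38). In the second run alone 7 neutrophil genes changed sign: Lcn2 to -0.58, Ngp to -0.64, Ltf to -0.062, Mmp8 to -0.047, S100a9 to -0.025, Mmp9 to -0.0041 and Hp to -0.0019. With 1 array left out at a time Ltf ranged from -0.060 (without x replicate 2) to 0.81. No paired analysis was possible because the labels give the groups no shared replicate numbers.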
